A study of Mus musculus with 18 samples.

Results

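The response of 2 mouse tissues to monosodium urate (MSU) crystals was compared gene by gene, as the difference between the response of the ankle joint, where the crystals were placed, and the response of the dorsal root ganglia (DRG), where the somata of the sensory neurons lie. The comparison was made over 12 of the 18 libraries of the series, namely those of ankle and DRG, and over the 19773 genes with enough counts to be tested. All mice were C57BL/6, aged 10 weeks, and tissue was taken 8 h after an injection of 100 µl at the right ankle. The 4 groups were ankle after MSU, ankle after PBS, DRG after MSU and DRG after PBS, with 3 libraries in each. PBS is phosphate-buffered saline, given without crystals. One label calls the PBS mice untreated and their titles say WT, while the treatment protocol, the design text and the column names give PBS, and they are taken as PBS-injected. The labels state neither that each library is a separate animal, nor which ganglia were taken, nor whether ankle and DRG libraries share animals. P-values therefore measure the spread between these libraries. No genotype differs between the groups, and no allele or transgene is named.

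MSU crystals are the form of urate that deposits in gouty joints. Taken up by macrophages, they activate the NLRP3 inflammasome, which releases interleukin-1 beta, and the cytokines and chemokines that follow bring neutrophils out of the vessels into the joint. The joint is supplied by sensory neurons whose cell bodies lie in the DRG, among satellite glia, Schwann cells and resident macrophages, and these cells can respond both to nerve signals and to hormones and cytokines in the blood. Transcription factors of 2 kinds recur in the genes described here. NF-kB switches on cytokine genes together with its own inhibitors, and the glucocorticoid receptor, activated by stress hormone, switches on metabolic and anti-inflammatory genes.

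Promoter sequence is shown for 7 genes chosen from those that hold a match. The stretches therefore cannot show which motif goes with which direction of response. Il6, Tnfaip3 and Gbp5 responded more in the ankle, Sgk1 and Map3k6 responded more in the DRG, and for Cxcl1 and Nfkbia the difference missed the test. The stretches are 60 bases from RefSeq promoters of build GRCm38.p6, written 5′ to 3′ on the strand of the gene. Capitals mark each match, on either strand, to an NF-kB motif (GGG, any 2 bases, TTTCC) in the first 5 and to a glucocorticoid response element (GNACA, any 3 bases, TGTNC) in the last pair. N stands for any base.
Il6 chr5:30013044-30013103 plus strand: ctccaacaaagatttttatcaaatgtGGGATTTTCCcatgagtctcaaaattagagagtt
Tnfaip3 chr10:19015411-19015470 minus strand: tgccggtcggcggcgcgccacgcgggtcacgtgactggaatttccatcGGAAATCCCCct
Gbp5 chr3:142496834-142496893 plus strand: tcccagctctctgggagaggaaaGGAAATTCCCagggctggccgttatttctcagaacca
Cxcl1 chr5:90891145-90891204 plus strand: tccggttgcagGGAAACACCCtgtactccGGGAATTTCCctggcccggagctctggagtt
Nfkbia chr12:55492648-55492707 minus strand: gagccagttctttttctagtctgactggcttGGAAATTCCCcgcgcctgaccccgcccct
Sgk1 chr10:21993680-21993739 plus strand: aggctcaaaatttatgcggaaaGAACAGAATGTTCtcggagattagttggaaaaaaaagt
Map3k6 chr4:133240613-133240672 plus strand: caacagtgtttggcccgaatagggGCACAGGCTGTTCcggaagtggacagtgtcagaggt

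Motif matches were rare in each class of response. In the window of 250 bases before to 50 bases after the start, the NF-kB motif was found in 2.58% of 2522 genes whose difference was higher in the ankle, in 1.93% of 2124 genes whose difference was lower, and in 2.02% of all 13737 tested genes with a promoter. The glucocorticoid motif was found in 0.238% of the genes with a higher difference, in 0.895% of those with a lower difference (19 genes), and in 0.459% of all. Among named genes not printed, the NF-kB motif was found in genes of either direction. Ccl9, Sbsn and Vim had lower differences, Cdhr1 and Serpina3n had higher ones, and that of Cxcl2 missed the test. Serpina3n also held a glucocorticoid motif. A match is a run of letters and not a measured binding site.

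The libraries held 11632950 to 38812815 counts. Marker genes matched the tissue labels, since the neurofilament gene Nefh had 2343 to 4286 CPM (read counts scaled to library size and composition) in the DRG and under 1 CPM in the ankle, and the lubricin gene Prg4 had 4310 to 11100 CPM in the ankle. Krt14, a keratin of skin, was at or near 0 in the DRG, and so was Chat, a marker of spinal motor neurons. Other genes checked as spinal cord markers were present there but do not mark spinal cord alone. Aqp4, which is also in the satellite glia list used below, had DRG means after MSU and PBS of 15.3 and 13.4 CPM. Hoxc10 had 8.11 and 7.17 CPM in the DRG, against 5.92 and 10.0 CPM in the ankle, so it did not set the DRG apart. Slc1a2 had 6.72 and 8.30 CPM in the DRG, and Olig2 and Mog were not among the tested genes. Of the other joint markers, Col1a1 had DRG means of 140.5 and 141.9 CPM and Comp 48.0 and 30.1 CPM, while Acan, Col2a1 and Bglap lay lower. In bulk tissue, fewer cells of a type and less RNA per cell cannot be told apart. DRG MSU library 1 stood apart by its muscle transcripts, with a summed 18700 CPM over 15 contractile genes, against 2288 and 2308 CPM in the other two DRG MSU libraries and 102 to 457 CPM in DRG after PBS. Prg4 also differed, at 61.3, 189 and 200 CPM in DRG after MSU, against 22.1, 36.5 and 6.18 CPM in DRG after PBS. The part of muscle, joint or spinal cord tissue in the DRG results was not tested. Among the ankle controls, PBS library 2 held the highest levels of stress-induced and neutrophil genes.

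The response differed between the tissues for 6175 of the 19773 genes (31.2%, edgeR adjusted p under 0.05). The log2 difference, which is the log2 fold change of MSU over PBS in the ankle minus that in the DRG, was higher for 3252 genes (16.4%) and lower for 2923 (14.8%). Counts of gene lists below are to be read against these shares. At least a 2-fold difference was reached by 1143 of the higher and 1772 of the lower ones. The balance of directions depends on scaling, with 52.7% of calls higher as analysed, 40.4% with upper quartile factors and 35.3% with no count filter, and the median over all genes was -0.05, -0.18 and -0.26 in these fits. Of these 6175 genes, none passed the test with the opposite sign in any of the alternatives run. Within the tissues, 4269 genes rose (21.6%) and 4344 fell (22.0%) in the ankle, 43.6% in all. In the DRG 2202 rose (11.1%) and 2869 fell (14.5%), 25.6% in all. These balances depend on the settings too: in the DRG 2556 rose and 2333 fell with upper quartile factors, and 2569 rose and 2301 fell with TMM within each tissue, while in the ankle 3061 rose and 5140 fell with no count filter.

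A higher difference had several sources. Of the 3252 genes, 1659 (51.0%) rose in the ankle and were not called in the DRG, 661 (20.3%) fell in the DRG and were not called in the ankle, 587 (18.1%) rose in the ankle and fell in the DRG, and 187 (5.75%) rose in both. The 2923 lower differences held 1571 genes (53.7%) that fell in the ankle alone, 667 (22.8%) that rose in the DRG alone, 252 (8.62%) that fell in the ankle and rose in the DRG, and 231 (7.90%) that fell in both. A gene was called in the ankle alone, here, when it passed the test there and missed it in the DRG. Across all 19773 genes the 2 responses had a Pearson correlation of 0.22 and a Spearman correlation of 0.19, given as a description, since genes are not independent.

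**Figure D1:**
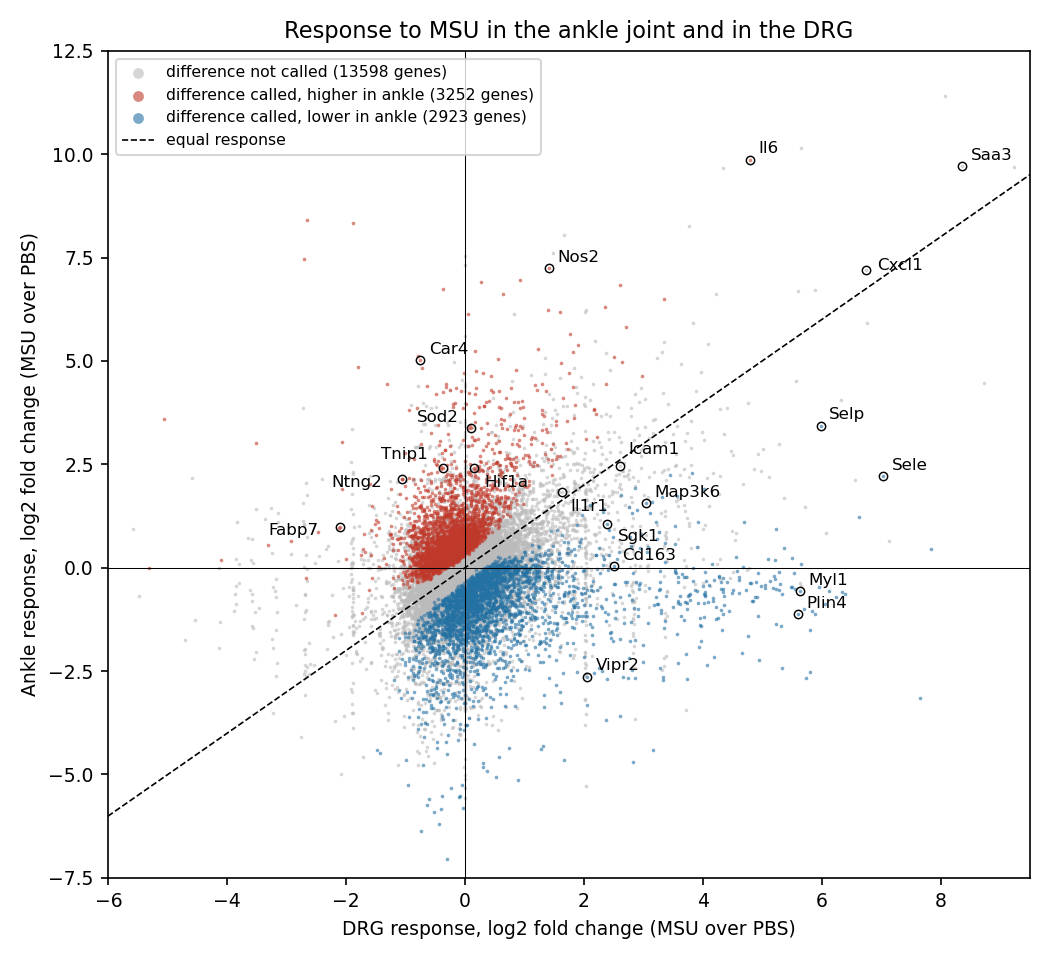
Log2 fold change of MSU over PBS in the ankle (y axis) against that in the DRG (x axis), 1 point per tested gene, with 1 gene outside the plot. Red points passed the test with a higher difference in the ankle (3252 genes) and blue points with a lower one (2923 genes). Circled genes other than Car4 are described in the text. Il6, Nos2 and Sod2 lie far above the dashed line of equal response, Sele, Selp and Plin4 far below it, and Cxcl1 and Icam1 close to it.

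The cytokine genes Il6, Lif and Il1b rose in both tissues, and more so in the ankle. Il6, the cytokine that sets off the acute phase response, had 300.1, 253 and 497 CPM in ankles after MSU, against 0.407, 0.387 and 0.248 CPM in ankles after PBS. The DRG held 10.2, 11.8 and 14.4 CPM after MSU, against 0.258, 0.201 and 1.06 CPM after PBS. Every MSU library lay above every PBS library in both tissues, and the rise was 933-fold in the ankle against 27.6-fold in the DRG (log2 difference 5.08, SE 0.87, edgeR adjusted p = 0.00178). Lif, a cytokine of the same family that acts on neurons, had 101, 133 and 149 CPM in ankles after MSU, against 3.23, 2.61 and 3.34 CPM in ankles after PBS. Its DRG levels were 3.95, 6.50 and 6.11 CPM after MSU, against 1.78, 1.10 and 1.53 CPM after PBS. Again no groups overlapped, and the log2 difference was 3.48 (SE 0.32, edgeR adjusted p = 1.32e-05). Of 10 tested ligands and receptors of the interleukin-6 family, 4 had a higher difference (Lif, Il6st, Il6 and Osmr) and 2 a lower one (Il6ra and Il11ra1). Among all genes the shares were 16.4% and 14.8%. The median was 0.83 for the list against -0.05 over all genes.

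The receptor chains of interleukin-6 moved in different tissues. Il6ra, which binds the ligand, had 79.0, 90.3 and 112 CPM in ankles after MSU, against 72.0, 100.5 and 78.4 CPM in ankles after PBS, with overlapping ankle groups. DRG libraries had 25.1, 26.4 and 23.0 CPM after MSU, against 7.62, 7.03 and 6.64 CPM after PBS, with no overlap and a rise of 3.48-fold (log2 difference -1.64, SE 0.21, edgeR adjusted p = 8.96e-05). Il6st, the shared signalling chain gp130, rose in the ankle (log2 fold change 0.79) and had a log2 fold change of -0.10 in the DRG (log2 difference 0.89, SE 0.12, edgeR adjusted p = 0.000187). Stat3, the transcription factor downstream of gp130, had 692, 709 and 760 CPM in ankles after MSU, against 212, 251 and 211 CPM in ankles after PBS. Its DRG libraries held 441, 452 and 426 CPM after MSU, against 474, 476 and 557 CPM after PBS. It rose in the ankle alone, and the log2 difference was 1.87 (SE 0.14, edgeR adjusted p = 2.51e-06).

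Genes that STAT3 and the acute phase switch on rose in both tissues, 19 of 20 tested members in the ankle and 15 of 20 in the DRG. Their difference was higher for 7 and lower for 1 (Cebpb, log2 difference -1.53, SE 0.35, edgeR adjusted p = 0.00725), with a median of 0.70. Serpina3n, a secreted protease inhibitor, rose more in the ankle (log2 difference 1.43, SE 0.24, edgeR adjusted p = 0.000674). Saa3, an acute phase apolipoprotein, rose by 9.72 in the ankle against 8.36 in the DRG on the log2 scale, and its log2 difference of 1.35 (95% interval -1.70 to 4.41, edgeR adjusted p = 0.502) was not resolved. Socs3, the feedback inhibitor of this pathway, rose by 3.57 in the ankle against 3.16 in the DRG on the log2 scale, with a log2 difference of 0.41 (95% interval -0.54 to 1.37, edgeR adjusted p = 0.516). The difference of Lcn2, which encodes the iron-binding lipocalin of neutrophils, depended on ankle PBS library 2: it was 1.39 (edgeR adjusted p = 0.209) with that library and 2.44 (edgeR adjusted p = 0.000446) without it.

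In the list of 17 interleukin-1 and inflammasome genes, 3 differences were higher (Nlrp3, Il1b and Il1rl1) and 2 lower (Pycard and Il18r1), shares close to the 16.4% and 14.8% of all genes. Nlrp3, the sensor activated by the crystals, had 59.0, 177 and 207 CPM in ankles after MSU, against 4.48, 3.70 and 2.79 CPM in ankles after PBS. The DRG held 1.72, 1.67 and 1.73 CPM after MSU, against 0.904, 0.653 and 0.531 CPM after PBS, so the groups did not overlap in either tissue, but the log2 fold change of 1.22 in the DRG missed the test (edgeR adjusted p = 0.188) and the difference passed it (log2 difference 4.08, SE 0.79, edgeR adjusted p = 0.00383). Il1b, the cytokine that the inflammasome matures, rose by 6.30 in the ankle against 2.36 in the DRG on the log2 scale, with a log2 difference of 3.94 (SE 0.82, edgeR adjusted p = 0.00641). Pycard, the adaptor that links sensor to protease, fell in the ankle (log2 fold change -0.94) and rose in the DRG (log2 fold change 0.76), with overlapping DRG groups and a log2 difference of -1.70 (SE 0.31, edgeR adjusted p = 0.00125). Il18r1, a chain of the interleukin-18 receptor, missed the test without DRG PBS library 2 or 3 or DRG MSU library 3, and Il1rl1 without DRG PBS library 1. Nlrp3 and Il1b missed the test in limma-voom (adjusted p = 0.205 and 0.209).

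The receptor of interleukin-1 rose alike. Il1r1 had 446, 373 and 396 CPM in ankles after MSU, against 93.3, 119 and 132 CPM in ankles after PBS. The DRG libraries held 39.0, 45.6 and 48.0 CPM after MSU, against 15.3, 13.0 and 14.7 CPM after PBS. The groups were apart in both tissues, with a rise of 3.53-fold in the ankle against 3.09-fold in the DRG, and the 95% interval of the log2 difference (-0.20 to 0.58) just met the bound used for likeness, a 1.5-fold difference in either direction. That bound was kept in 11 of 24 alternatives.

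Of 10 neutrophil chemoattractants and receptors, 8 rose in ankles after MSU and 5 rose in the ganglia. Their differences were poorly resolved. Cxcl1, a ligand of the receptor CXCR2, had 326, 381 and 673 CPM in ankles after MSU, against 2.89, 4.40 and 1.92 CPM in ankles after PBS. The DRG held 18.9, 24.6 and 22.3 CPM after MSU, against 0.162, 0.151 and 0.332 CPM after PBS. The level was lower in the DRG, but the rise was 146-fold in the ankle against 108-fold in the DRG, and the log2 difference of 0.43 had a 95% interval of -1.63 to 2.50 (edgeR adjusted p = 0.777). Csf3, the growth factor of neutrophils, and Cxcl2 had larger differences that missed the test, 3.33 (edgeR adjusted p = 0.0582) and 5.34 (edgeR adjusted p = 0.0817). Csf3 had 6 counts in all in each group of PBS libraries, so its fold depends on the prior count of the fit. Csf3 passed the test without ankle MSU library 1 or 3 or DRG PBS library 3, and Cxcl2 without ankle MSU library 1. Of the 10 members, 3 had a higher difference, with a list median of 2.67, and DESeq2 called 6. The 3 were Csf3r, Cxcl5 and Cxcr2, and only Csf3r, the receptor of Csf3, passed in every fit with 1 library left out. Cxcl5 (edgeR adjusted p = 0.0463) missed the test without any 1 library except ankle PBS 1, ankle MSU 3 or DRG MSU 3, and Cxcr2 (edgeR adjusted p = 0.0485) without any 1 except ankle PBS 2, ankle MSU 1, DRG PBS 2 or DRG MSU 1.

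Monocyte chemoattractants gave 1 higher and 2 lower differences among 14, against 16.4% and 14.8% of all genes, and DESeq2 called 4 higher. There were 4 higher ones without ankle PBS library 1, 3 without ankle MSU library 1 and 2 without ankle MSU library 3, and 1 of the lower ones was lost without ankle MSU library 1, any 1 DRG PBS library or DRG MSU library 2 or 3. The higher one was Ccl3 (log2 difference 6.66, edgeR adjusted p = 0.048), whose DRG groups lay at or under 0.452 CPM and overlapped, and it missed the test without any 1 library except ankle PBS 1, ankle MSU 1 or ankle MSU 3. Ccl6, a chemokine of myeloid cells, had a lower difference: it rose by 1.46 in the ankle against 2.75 in the DRG on the log2 scale (log2 difference -1.30, SE 0.36, edgeR adjusted p = 0.019; adjusted p = 0.0503 without DRG PBS library 3). Ccl9 also had a lower difference (log2 difference -1.19, SE 0.37, edgeR adjusted p = 0.0302). Ccl2, the main ligand of the monocyte receptor CCR2, rose in both tissues, and its log2 difference of 1.96 had an edgeR adjusted p of 0.0542, which passed without ankle PBS library 1, ankle MSU library 1 or DRG PBS library 1.

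NF-kB inhibitors and subunits rose mainly in the ankle. Of 15 tested members, 11 had a higher difference, with a median of 1.04, and 14 rose in the ankle, against 8 that rose and 1 that fell in the DRG. Tnip1, which binds the deubiquitinase A20 and restrains NF-kB, had 213, 249 and 228 CPM in ankles after MSU, against 48.5, 42.3 and 38.2 CPM in ankles after PBS. The DRG held 48.8, 42.1 and 42.9 CPM after MSU, against 57.2, 59.5 and 55.6 CPM after PBS. The ankle groups were apart upward and the DRG groups apart downward, and the log2 difference was 2.78 (SE 0.14, edgeR adjusted p = 4.24e-07). Tnfaip3, which encodes A20 itself and whose promoter stretch is printed above, had 316, 527 and 588 CPM in ankles after MSU, against 22.9, 24.4 and 23.1 CPM in ankles after PBS. DRG libraries had 12.6, 10.04 and 12.6 CPM after MSU, against 7.01, 8.79 and 4.78 CPM after PBS. It rose 20.3-fold in the ankle against 1.70-fold in the DRG (log2 difference 3.58, SE 0.34, edgeR adjusted p = 4.03e-05). Nfkbie and Nfkb1, an inhibitor and a subunit, rose in the ankle alone, with log2 differences of 2.36 and 1.04. Nfkbia, the inhibitor IκBα, rose by 2.63 in the ankle against 2.01 in the DRG on the log2 scale, and its log2 difference of 0.63 (edgeR adjusted p = 0.0665) missed the test, although it passed without ankle PBS library 2 (0.83, edgeR adjusted p = 0.00882) and without ankle MSU library 1 (0.78, edgeR adjusted p = 0.0153).

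Interferon-induced genes showed the highest share of higher differences among the 37 lists examined. All 26 tested members rose in the ankle and 10 rose in the DRG, and the difference was higher for 22, with a median of 1.85. Leaving out ankle PBS library 2 brought the 22 to 17, and without DRG MSU library 1 it was 20. Gbp5, a guanylate-binding protein of the interferon-gamma response, had 114, 105 and 102 CPM in ankles after MSU, against 11.8, 5.88 and 6.07 CPM in ankles after PBS. Its DRG values were 14.5, 16.9 and 16.0 CPM after MSU, against 6.46, 7.28 and 5.45 CPM after PBS. No groups overlapped, and the rise was 13.2-fold in the ankle against 2.46-fold in the DRG (log2 difference 2.42, SE 0.32, edgeR adjusted p = 0.000188). Stat2, a subunit of the factor that interferon activates, rose in the ankle (log2 fold change 1.41) and had a log2 fold change of -0.23 in the DRG (log2 difference 1.64, SE 0.14, edgeR adjusted p = 8.58e-06). Oasl1, an antiviral gene induced by interferon, had a log2 difference of 3.86.

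As folds over PBS, both endothelial selectins rose more in the DRG, where Sele lay near the floor of detection after PBS. The level after MSU was higher in the ankle for both. Sele, which encodes E-selectin, the adhesion molecule that activated endothelium shows to leukocytes, had 53.5, 37.9 and 59.8 CPM in ankles after MSU, against 9.47, 14.2 and 8.92 CPM in ankles after PBS. For the DRG the values were 25.5, 22.4 and 25.0 CPM after MSU, against 0.258, 0.151 and 0.0664 CPM after PBS. Both tissues were apart between MSU and PBS, with a rise of 4.63-fold in the ankle against 131-fold in the DRG, and the log2 difference was -4.82 (SE 0.41, edgeR adjusted p = 7.83e-06). Ankles after PBS already held 8.92 to 14.2 CPM. Selp, which encodes P-selectin, had 118, 114 and 131 CPM in ankles after MSU, against 7.82, 16.3 and 9.47 CPM in ankles after PBS. DRG libraries held 39.7, 46.5 and 43.0 CPM after MSU, against 0.614, 0.402 and 1.13 CPM after PBS. The rise was 10.8-fold in the ankle against 63.1-fold in the DRG (log2 difference -2.55, SE 0.43, edgeR adjusted p = 0.00111). Icam1, the ligand of leukocyte integrins, had 175, 174 and 184 CPM in ankles after MSU, against 34.4, 35.0 and 27.5 CPM in ankles after PBS. DRG libraries had 24.4, 24.6 and 26.2 CPM after MSU, against 4.39, 5.27 and 2.46 CPM after PBS. It rose in both without overlap, with a log2 difference of -0.15 (95% interval -0.68 to 0.38, edgeR adjusted p = 0.696).

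Among other vessel genes, Ackr1 and Plvap had higher differences. Ackr1, the chemokine-binding receptor of venules, rose in the ankle (log2 fold change 0.86) and fell in the DRG (log2 fold change -0.74), with a log2 difference of 1.60 (SE 0.21, edgeR adjusted p = 0.000129). Plvap, which forms the diaphragms of fenestrated vessels, had a log2 fold change of -0.25 in the ankle, with overlapping groups, and fell in the DRG (log2 fold change -1.22, log2 difference 0.97, SE 0.21, edgeR adjusted p = 0.00334). In the whole list of 15, 5 differences were higher (Ackr1, Plvap, Angpt2, Cdh5 and Cldn5) and 3 lower (Sele, Selp and Esm1). Among all genes the shares were 16.4% and 14.8%, and the median of the list was -0.08. Cldn5 missed the test without ankle MSU library 1, DRG PBS library 1 or 2, or DRG MSU library 2 or 3.

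**Figure D2:**
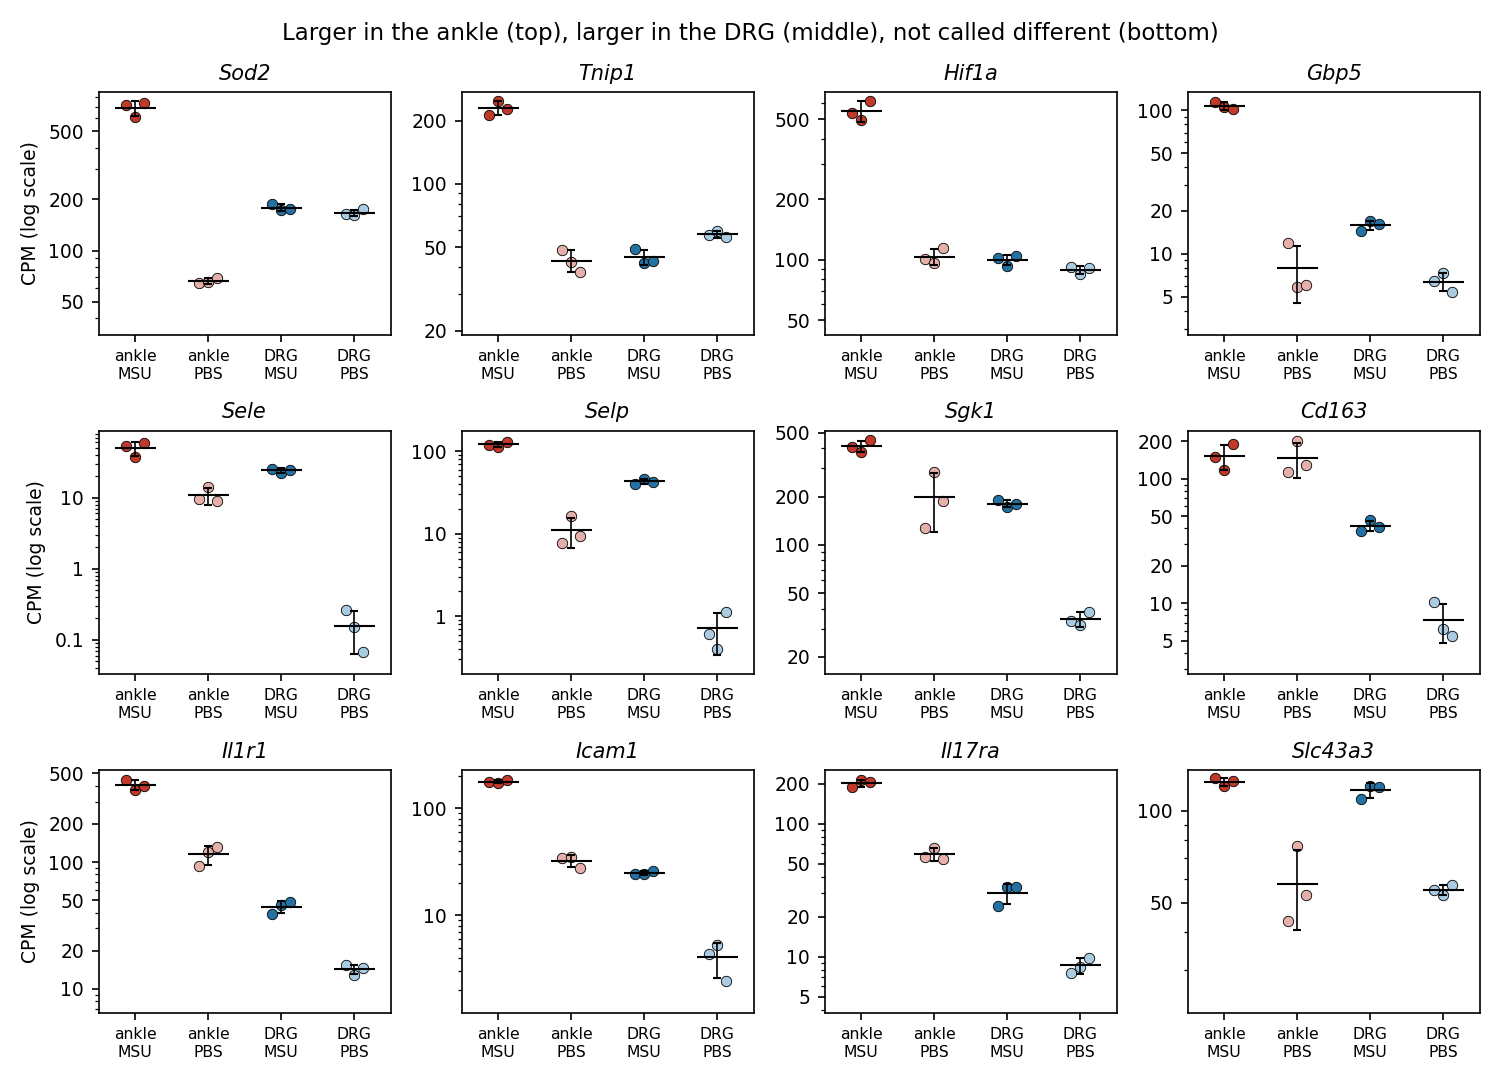
Level in each library (points, CPM on a log scale) of 12 genes, with the mean and SD of 3 libraries as a bar. The top row shows genes whose response was larger in the ankle, the middle row genes whose response was larger in the DRG, and the bottom row genes whose difference did not pass the test. Hif1a and Sod2 stand out in ankles after MSU while their DRG groups lie close together, and Sele and Selp start from under 2 CPM in DRG after PBS.

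Genes induced by glucocorticoids rose in both tissues, 14 of 18 in the ankle and 15 of 18 in the DRG. The difference was lower for 4 of 18, namely Plin4, Sult1a1, Map3k6 and Sgk1, against 14.8% of all genes, with a median of -0.32. Sgk1, a kinase that the glucocorticoid receptor induces in most cell types, had 410.5, 380.2 and 449 CPM in ankles after MSU, against 127, 286 and 188 CPM in ankles after PBS. In the DRG it had 191, 172 and 179 CPM after MSU, against 33.6, 31.4 and 38.3 CPM after PBS. The groups were apart in both, and the rise was 2.06-fold in the ankle against 5.25-fold in the DRG (log2 difference -1.35, SE 0.32, edgeR adjusted p = 0.00807; adjusted p = 0.0589 with all 18 libraries in the fit). Map3k6, a stress-activated kinase whose printed stretch, like that of Sgk1, holds a glucocorticoid motif, rose 2.94-fold in the ankle against 8.28-fold in the DRG (log2 difference -1.49, SE 0.34, edgeR adjusted p = 0.00693). Plin4, a lipid-droplet coat protein, had 121, 156 and 159 CPM in ankles after MSU, against 247, 378 and 329 CPM in ankles after PBS. DRG libraries held 284, 198 and 196 CPM after MSU, against 4.36, 3.67 and 6.18 CPM after PBS. It fell in the ankle and rose in the DRG, where every MSU library lay above every PBS library (log2 difference -6.73, SE 0.33, edgeR adjusted p = 9.94e-07). Sult1a1, a sulfotransferase, rose in the DRG alone (log2 difference -1.54, SE 0.27, edgeR adjusted p = 0.000965).

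The ankle controls were uneven for these genes. Fkbp5, the co-chaperone of the glucocorticoid receptor, had 257, 281 and 301 CPM in ankles after MSU, against 49.1, 171 and 46.9 CPM in ankles after PBS. DRG libraries had 164, 152 and 154 CPM after MSU, against 62.7, 56.3 and 72.1 CPM after PBS. Its log2 difference of 0.35 (edgeR adjusted p = 0.729) became 1.24 (edgeR adjusted p = 9.93e-05) without ankle PBS library 2. Summed over the 18 genes, that library held 3826 CPM, against 1622 and 2159 CPM in the other two ankle controls, 7838 to 10150 CPM in ankles after MSU, 3773 to 4063 CPM in DRG after MSU and 1041 to 1144 CPM in DRG after PBS. Without it, 5 members had a higher difference and 4 a lower one.

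Hypoxia and glycolysis genes changed in both tissues, 14 up and 1 down in the ankle against 6 up and 3 down in the DRG. Of 19 tested members, 12 had a higher difference and 1 a lower one, with a median of 0.60. The lower one, Egln3, missed the test without any 1 library except ankle MSU 1 or DRG PBS 2. Hif1a, the oxygen-regulated transcription factor that also drives glycolysis in myeloid cells, had 536, 493 and 618 CPM in ankles after MSU, against 101, 96.4 and 114 CPM in ankles after PBS. The DRG held 102, 92.9 and 104 CPM after MSU, against 92.2, 84.7 and 91.1 CPM after PBS. The ankle rise was 5.29-fold, the DRG values of MSU lay just above those of PBS without passing the test (edgeR adjusted p = 0.282), and the log2 difference was 2.25 (SE 0.14, edgeR adjusted p = 9.94e-07). Pfkfb3, which makes the activator of phosphofructokinase, had a log2 difference of 2.59 (SE 0.19, edgeR adjusted p = 2.51e-06). Epas1, the related factor HIF-2 alpha, and Hk1, a hexokinase, both rose in the ankle (log2 fold changes 1.30 and 0.26) and fell in the DRG (log2 fold changes -0.31 and -0.83), with log2 differences of 1.61 and 1.09.

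Genes of arginine use and oxidative defence also changed in both tissues, 15 up in the ankle against 6 up and 3 down in the DRG. The difference was higher for 9 of 17, with a median of 1.22. Sod2, the mitochondrial superoxide dismutase, had 719, 608 and 730.4 CPM in ankles after MSU, against 64.1, 65.6 and 68.8 CPM in ankles after PBS. DRG libraries had 188, 173 and 176 CPM after MSU, against 165, 162 and 174 CPM after PBS, with overlapping groups. The ankle rise was 10.4-fold and the log2 difference 3.28 (SE 0.12, edgeR adjusted p = 1.7e-08). Nos2, the inducible nitric oxide synthase, had 261, 238 and 247 CPM in ankles after MSU, against 1.63, 1.48 and 1.86 CPM in ankles after PBS. The DRG held 1.08, 0.416 and 0.591 CPM after MSU, against 0.194, 0.251 and 0.332 CPM after PBS, values near the floor of detection. Nos2 rose in both, 152-fold in the ankle against 2.65-fold in the DRG (log2 difference 5.84, SE 0.48, edgeR adjusted p = 5.76e-06). Arg2, the arginase that competes for the same substrate, rose in the ankle (log2 fold change 4.35) with overlapping DRG groups (log2 difference 4.17, SE 0.49, edgeR adjusted p = 5.3e-05). Txnrd1 and Gclm, of the thioredoxin and glutathione systems, rose in the ankle (log2 fold changes 1.22 and 0.88) and fell in the DRG (log2 fold changes -0.55 and -0.51), with log2 differences of 1.76 and 1.38.

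Enzymes of purine metabolism, the pathway that ends in urate, gave 5 higher differences among 14, against 16.4% of all genes, with a median of 0.26. Gda, which deaminates guanine to xanthine, rose in the ankle (log2 fold change 1.82) with overlapping DRG groups (log2 difference 1.84, SE 0.25, edgeR adjusted p = 0.000246). Impdh1 and Impdh2, which make guanine nucleotides, had log2 differences of 1.38 and 1.04, and Impdh1 fell in the DRG (log2 fold change -0.80). The others were Entpd1 (log2 difference 1.56), an ectoenzyme that degrades extracellular ATP, and Nt5e (log2 difference 0.85), which makes adenosine.

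Of the prostaglandin genes, 6 of 17 had a higher difference and 1 (Ptgs1) a lower one, against 16.4% and 14.8% of all genes, with a median of 0.28. Ptges, the inducible prostaglandin E2 synthase, rose in the ankle (log2 fold change 2.26) with overlapping DRG groups (log2 difference 2.21, SE 0.27, edgeR adjusted p = 0.000123). Ptger4, a receptor of prostaglandin E2, rose in the ankle (log2 fold change 0.95) and fell in the DRG (log2 fold change -0.58, log2 difference 1.53, SE 0.18, edgeR adjusted p = 6.01e-05). Ptgir, the prostacyclin receptor, had a log2 difference of 1.42. Ptgs2, the inducible cyclooxygenase, rose by 5.92 in the ankle against 3.84 in the DRG on the log2 scale, and its log2 difference of 2.09 missed the test (95% interval -0.06 to 4.23, edgeR adjusted p = 0.13; 2.46 and 0.0175 without ankle MSU library 1).

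Matrix proteases followed with 6 higher and 3 lower differences among 16, against 16.4% and 14.8% of all genes, and a median of 1.13. Adamts4 and Adamts5, the aggrecanases that cleave cartilage proteoglycan, had log2 differences of 2.33 (SE 0.29, edgeR adjusted p = 9.31e-05) for the first and 1.76 (SE 0.22, edgeR adjusted p = 8.96e-05) for the second. Adamts4 rose by 4.98 in the ankle against 2.65 in the DRG on the log2 scale, whereas Adamts5 rose in the ankle (log2 fold change 1.41) and had a log2 fold change of -0.36 in the DRG. Mmp3, stromelysin 1, rose 42.3-fold in the ankle against 16.9-fold in the DRG, and its log2 difference of 1.32 had an edgeR adjusted p of 0.0988 (1.49 and 0.0467 without ankle MSU library 2). The 3 lower differences were inhibitors, namely Timp3 (log2 difference -1.32, SE 0.14, edgeR adjusted p = 2.21e-05), Timp2 and Timp4. The 3 lower calls became 1 without ankle PBS library 2 or 3, ankle MSU library 3, DRG PBS library 3 or any 1 DRG MSU library.

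Neutrophil markers rose with these genes in the ankle. Summed over 18 markers they reached 3897, 5095 and 5823 CPM in ankles after MSU, against 423, 1132 and 497 CPM in ankles after PBS, and 482, 253 and 274 CPM in DRG after MSU, against 193, 109 and 149 CPM in DRG after PBS. All 18 rose in the ankle and 6 rose in the DRG, and the difference was higher for 11, with a median of 2.30. That count was 7 without DRG PBS library 1 or library 3, and 15 without ankle PBS library 2. Fpr1, the formyl peptide receptor, had 47.7, 82.0 and 87.8 CPM in ankles after MSU, against 1.95, 2.82 and 0.681 CPM in ankles after PBS. The DRG held 0.502, 1.41 and 1.73 CPM after MSU, against 0.840, 1.96 and 0.598 CPM after PBS and its groups overlapped (log2 difference 5.07, SE 0.80, edgeR adjusted p = 0.00111). Slfn4, a schlafen gene of myeloid cells, had 1837, 3895 and 4179 CPM in ankles after MSU, against 36.3, 70.8 and 29.2 CPM in ankles after PBS, while DRG libraries had 26.8, 20.8 and 23.8 CPM after MSU, against 8.49, 5.83 and 9.36 CPM after PBS. It rose 72.5-fold in the ankle against 3.01-fold in the DRG (log2 difference 4.59, SE 0.57, edgeR adjusted p = 0.000352). The part of neutrophil number in the ankle cytokine, NF-kB, interferon and oxidative genes above was not tested.

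Differences of monocyte and macrophage markers were spread in both directions, 3 higher (Fcgr1, Cd14 and Ly6c2) and 2 lower (Cd163 and C1qc) among 20, shares close to the 16.4% and 14.8% of all genes. In the DRG 11 of the 20 rose and 1 fell, with a median log2 fold change of 0.87, while 11.1% of all genes rose there. In the ankle 7 rose and 1 fell, with a median of 0.22, while 21.6% of all genes rose there. The 20 markers summed to 2677 to 3608 CPM in ankles after MSU, 2020 to 2369 CPM in ankles after PBS, 390 to 430 CPM in DRG after MSU and 164 to 308 CPM in DRG after PBS. Cd163, the haemoglobin scavenger receptor of resident macrophages, which glucocorticoids induce, had 149, 118 and 189 CPM in ankles after MSU, against 113, 201 and 129 CPM in ankles after PBS, with overlapping ankle groups. The DRG libraries held 38.5, 46.7 and 41.0 CPM after MSU, against 10.2, 6.28 and 5.45 CPM after PBS, a rise of 5.65-fold (log2 difference -2.45, SE 0.39, edgeR adjusted p = 0.00102). The 3 higher calls became 0 without ankle MSU library 2 or 3, and 1 without ankle PBS library 1 or 3, DRG PBS library 1 or 2, or any 1 DRG MSU library. The 2 lower calls became 4 with RLE factors, 5 in DESeq2 and 4 without DRG PBS library 2, and 1 without ankle PBS library 1, ankle MSU library 2, DRG PBS library 1 or DRG MSU library 2.

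**Figure D3:**
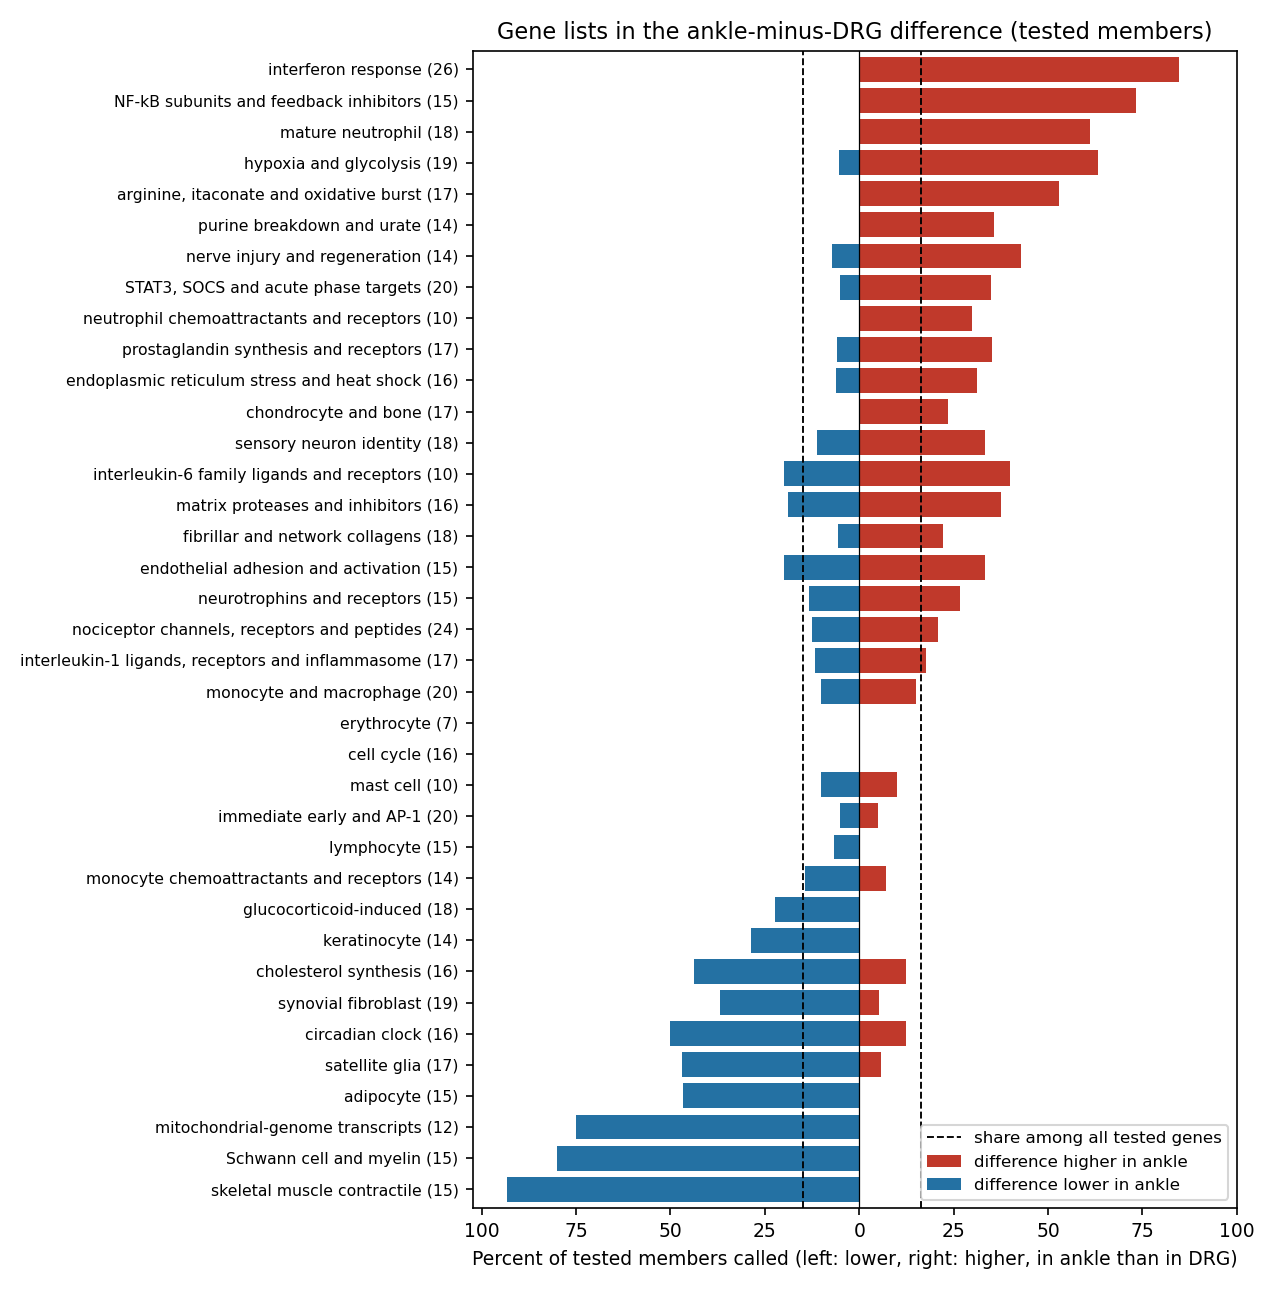
Share of the tested members of each gene list (number in brackets) whose difference passed the test, higher in the ankle to the right in red and lower to the left in blue, in percent. The dashed lines are the shares over all tested genes, 16.4% higher and 14.8% lower. Interferon, NF-kB, hypoxia and neutrophil lists extend furthest to the right, and muscle, Schwann cell and mitochondrial lists furthest to the left.

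The glia of peripheral nerve separated the tissues in the other direction. Of 15 Schwann cell and myelin genes, 12 had a lower difference, with a median of -1.14, and 11 fell in the ankle, against 6 that rose and 1 that fell in the DRG. The count was 12 to 14 in every fit with 1 library left out. Ncmap, a protein of noncompact myelin, had 6.55, 5.61 and 6.98 CPM in ankles after MSU, against 14.4, 12.9 and 13.8 CPM in ankles after PBS. DRG libraries held 121, 149 and 152 CPM after MSU, against 81.1, 78.6 and 65.2 CPM after PBS. It fell without overlap in the ankle and rose without overlap in the DRG (log2 difference -2.01, SE 0.17, edgeR adjusted p = 6.43e-06). Cnp, a myelin enzyme, fell in the ankle (log2 fold change -0.69) and rose in the DRG (log2 fold change 0.34, log2 difference -1.04, SE 0.14, edgeR adjusted p = 0.000166). Egr2, the transcription factor of myelination and also an immediate early gene, overlapped in the ankle and rose in the DRG (log2 fold change 1.20, log2 difference -1.32, SE 0.19, edgeR adjusted p = 0.000219). Mal, a myelin membrane protein, fell in the ankle (log2 difference -1.42, SE 0.22, edgeR adjusted p = 0.000455).

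Satellite glia, which wrap neuronal cell bodies, gave 8 lower differences and 1 higher among 17, against 14.8% and 16.4% of all genes, with a median of -0.57. The higher one was Fabp7, a fatty acid binding protein of satellite glia. It had 0.819, 0.811 and 1.01 CPM in ankles after MSU, against 0.321, 0.704 and 0.248 CPM in ankles after PBS, values near the floor of detection. The DRG held 44.3, 56.2 and 65.2 CPM after MSU, against 249, 238 and 229.8 CPM after PBS, a fall to 0.232 times the PBS level. Neither tissue's groups overlapped, and the log2 difference was 3.10 (SE 0.38, edgeR adjusted p = 8.96e-05). Cdh19, a cadherin of glial precursors, had 6.52, 3.85 and 4.29 CPM in ankles after MSU, against 14.8, 14.6 and 16.5 CPM in ankles after PBS. The DRG held 199, 232 and 245 CPM after MSU, against 149, 120.4 and 107 CPM after PBS. It fell in the ankle and rose in the DRG without overlap (log2 difference -2.45, SE 0.24, edgeR adjusted p = 2.2e-05). Vim, the intermediate filament vimentin, fell in the ankle (log2 fold change -0.94) and rose in the DRG (log2 fold change 0.55, log2 difference -1.49, SE 0.19, edgeR adjusted p = 9.71e-05). Gfap, the filament that glia increase after injury, rose in both tissues, 9.51-fold in the ankle, where PBS libraries lay under 1 CPM, and 8.97-fold in the DRG, with a log2 difference of 0.09 (95% interval -0.85 to 1.02, edgeR adjusted p = 0.924).

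Sensory neuron genes fell in the DRG, 10 of 18, and summed to 17140 to 17900 CPM in DRG after MSU, against 23510 to 26530 CPM in DRG after PBS. In the ankle they lay far lower, at 283 to 300 CPM after MSU, against 172 to 197 CPM after PBS. The difference was higher for 6 and lower for 2 of 18, against 16.4% and 14.8% of all genes, with a median of 0.13. The 6 higher ones are not described here. The lower ones were Stmn2 and Prph, of which Prph missed the test without ankle MSU library 1. Stmn2, which encodes a growth-cone protein of neurons, had 2.20, 1.15 and 1.93 CPM in ankles after MSU, against 9.79, 11.4 and 11.6 CPM in ankles after PBS, a fall without overlap. The DRG held 1509, 1676 and 1766 CPM after MSU, against 1618, 1643 and 1737 CPM after PBS, with overlapping DRG groups (log2 difference -2.58, SE 0.21, edgeR adjusted p = 5.83e-06). From other lists, the neurotrophin-3 receptor Ntrk3 and the touch channel Piezo2 fell in both tissues and fell more in the ankle, with log2 differences of -1.98 and -1.49. Trpv1, the capsaicin receptor of nociceptors, fell in the ankle (log2 fold change -1.75, at under 2 CPM) and had a log2 fold change of -0.12 in the DRG (log2 difference -1.63, SE 0.26, edgeR adjusted p = 0.00052).

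Of 24 nociceptor channels, receptors and peptides, 5 differences were higher (Tac1, Ret, Calca, Gal and Asic1) and 3 lower (Piezo2, Trpv1 and Calcb), shares close to the 16.4% and 14.8% of all genes. In the ankle 3 members rose and 4 fell, while 21.6% of all genes rose and 22.0% fell there. In the DRG 0 rose and 8 fell, while 11.1% of all genes rose and 14.5% fell there. The members summed to 6084 to 6214 CPM in DRG after MSU, against 7366 to 9377 CPM in DRG after PBS. Calca, which encodes CGRP, had 1.23, 2.84 and 4.96 CPM in ankles after MSU, against 0.407, 0.317 and 0.124 CPM in ankles after PBS. DRG libraries held 1198, 1537 and 1510 CPM after MSU, against 1104, 1106 and 1576 CPM after PBS, with overlapping groups (log2 difference 2.92, SE 0.65, edgeR adjusted p = 0.00689). Calcb, the other CGRP gene, fell in the ankle (log2 fold change -1.75) with a log2 difference of -1.72 (SE 0.42, edgeR adjusted p = 0.0101). Calca and Gal missed the test in limma-voom (adjusted p = 0.0614 and 0.0587), with a variance per group (adjusted p = 0.121 and 0.131) and with the label number as a correlated block (adjusted p = 0.062 and 0.0588). Tac1, the substance P precursor, rose in the ankle (log2 fold change 2.39, at 2 CPM or less) with a log2 difference of 2.14 (SE 0.29, edgeR adjusted p = 0.000166). Calca transcripts can come from cells other than neurons, and their source in the ankle was not tested. Ret, the receptor subunit for glial cell line-derived factors, fell in the DRG (log2 fold change -0.87) with a log2 difference of 1.35 (SE 0.26, edgeR adjusted p = 0.00192), and Ntrk2, the BDNF receptor, rose in the ankle (log2 fold change 0.93) and fell in the DRG (log2 fold change -0.55, log2 difference 1.48, SE 0.15, edgeR adjusted p = 1.9e-05). Asic1 missed the test without any 1 library except ankle PBS 1, ankle MSU 3 or DRG MSU 1. Atf3, a marker of injured sensory neurons, had overlapping groups in both tissues and a log2 difference of -0.34 (95% interval -1.64 to 0.97, edgeR adjusted p = 0.721).

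**Figure D4:**
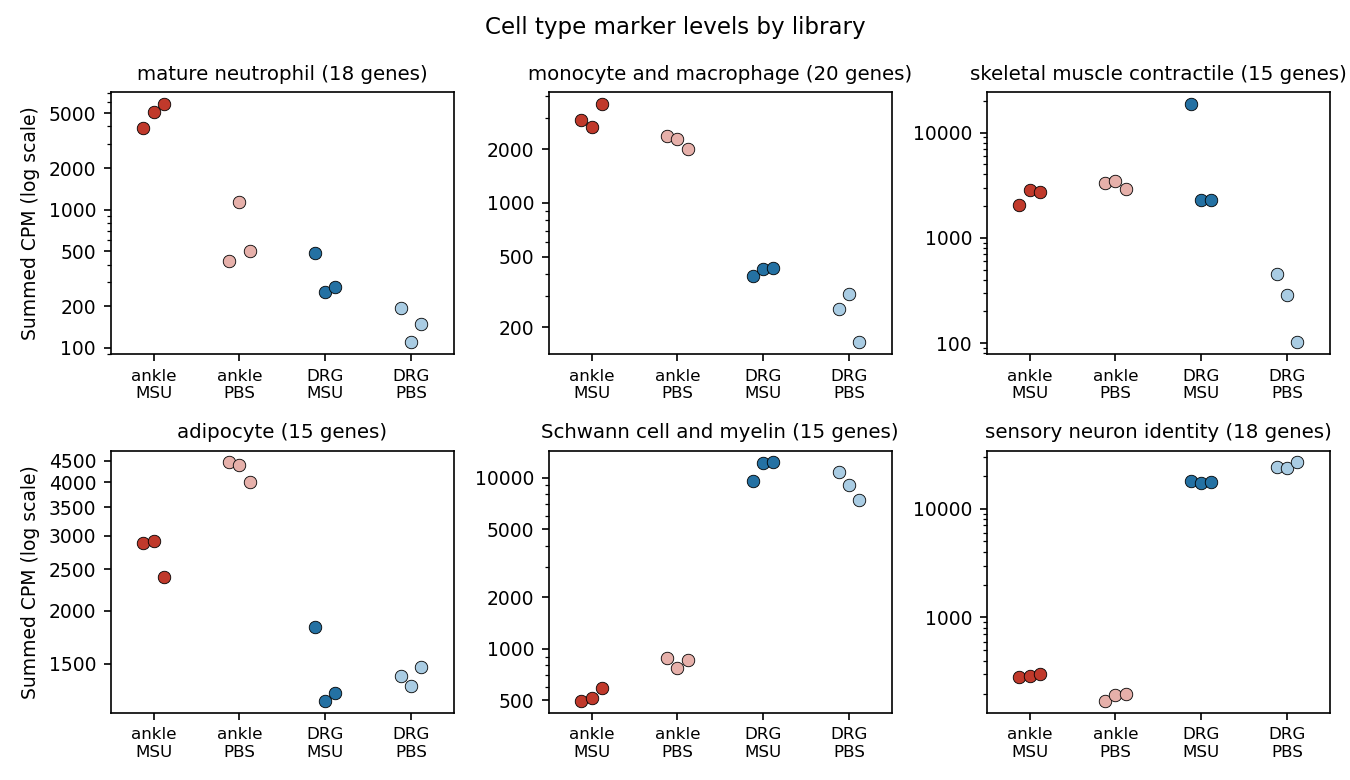
Summed CPM of 6 marker lists in each library on a log scale, with ankle after MSU, ankle after PBS, DRG after MSU and DRG after PBS from left to right. DRG MSU library 1 stands at 18700 CPM of muscle transcripts, above every other library, and the neutrophil sum of ankle PBS library 2 is 1132 CPM. Schwann cell transcripts are lower in ankles after MSU than in ankles after PBS, and sensory neuron transcripts lower in DRG after MSU than in DRG after PBS.

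Muscle transcripts rose in the DRG. Of 15 contractile genes 14 rose there, and 14 had a lower difference, with a median of -5.46. Myl1, a myosin light chain, had 145, 159.9 and 154 CPM in ankles after MSU, against 224, 239 and 212 CPM in ankles after PBS. The DRG held 868, 124 and 134 CPM after MSU, against 12.8, 6.58 and 2.39 CPM after PBS. All 3 DRG MSU libraries lay above all 3 DRG PBS libraries, but library 1 held several times the level of the other two (log2 difference -6.19, SE 1.19, edgeR adjusted p = 0.00496, and -4.66 without that library). Without it 12 members had a lower difference, with a median of -3.60, without ankle MSU library 3 or DRG PBS library 2 it was 9, and DESeq2 called 7.

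Adipocyte genes had 7 lower differences among 15, with a median of -3.09, and -1.04 without DRG MSU library 1. They summed to 2396 to 2914 CPM in ankles after MSU, against 4015 to 4457 CPM in ankles after PBS, and to 1229 to 1830 CPM in DRG after MSU, against 1331 to 1477 CPM in DRG after PBS. Lipe, hormone-sensitive lipase, fell in the ankle (log2 fold change -1.10) and had a log2 fold change of 0.33 in the DRG (log2 difference -1.44, SE 0.25, edgeR adjusted p = 0.000778). Cyp2e1, an enzyme of fat and liver, had 1.00, 1.22 and 1.68 CPM in ankles after MSU, against 26.4, 40.03 and 32.6 CPM in ankles after PBS. The DRG held 24.4, 1.25 and 1.26 CPM after MSU, against 1.42, 1.36 and 0.797 CPM after PBS, where library 1 alone was high and the groups overlapped (log2 difference -7.53, SE 1.61, edgeR adjusted p = 0.00754). Without that library the log2 difference was -4.76. Keratinocyte genes fell in the ankle, 13 of 14, and summed to 6065 to 8419 CPM in ankles after MSU, against 14310 to 16370 CPM in ankles after PBS. Their difference was lower for 4 of 14, against 14.8% of all genes, namely Krtdap (log2 difference -3.04, SE 0.43, edgeR adjusted p = 0.000364), Sbsn, Krt10 and Dsg1a. Dsg1a missed the test without DRG MSU library 3 (edgeR adjusted p = 0.0719). The 12 tested transcripts of the mitochondrial genome rose in the DRG (10 of 12) and 9 had a lower difference, with a median of -0.90. They summed to 61660, 45120 and 52100 CPM in DRG after MSU, against 33570, 28350 and 30830 CPM in DRG after PBS. Without DRG PBS library 2 the 9 became 5.

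Clock genes changed in both tissues, 4 up and 8 down among 16 in the ankle against 6 up and 1 down in the DRG. The difference was lower for 8 and higher for 2 (Cry1 and Npas2), with a median of -0.61. Dbp, an output of the clock that peaks by day, had 6.59, 7.71 and 9.17 CPM in ankles after MSU, against 47.1, 22.3 and 31.7 CPM in ankles after PBS. DRG libraries held 7.25, 7.18 and 8.35 CPM after MSU, against 7.01, 7.78 and 4.38 CPM after PBS, with overlapping groups (log2 difference -2.36, SE 0.38, edgeR adjusted p = 0.000551). Per3 and Tef had log2 differences of -1.83 and -1.10, and Cry1, a repressor of the clock, had 1.02 (SE 0.18, edgeR adjusted p = 0.00116). The hour at which mice were injected is not given in the sources used here.

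Cholesterol synthesis fell in both tissues, 14 of 16 members in the ankle and 13 of 16 in the DRG, and 7 of them were alike within 1.5-fold. The difference was lower for 7 and higher for 2, with a median of -0.20. Hmgcs1, the synthase at the head of the pathway, fell in both and fell more in the ankle (log2 fold change -1.29 in the ankle against -0.52 in the DRG, log2 difference -0.77, SE 0.12, edgeR adjusted p = 0.000347). Srebf2, the transcription factor of the pathway, fell in the DRG (log2 fold change -0.68, log2 difference 0.75, SE 0.13, edgeR adjusted p = 0.000708). Of 16 genes of endoplasmic reticulum stress and heat shock, 5 had a higher difference and 1 (Trib3) a lower one, against 16.4% and 14.8% of all genes. The chaperone genes Hspa5, Hsp90aa1 and Hsph1 rose in the ankle (log2 fold changes 1.94, 1.62 and 2.05), with log2 differences of 1.47, 1.51 and 2.30. Asns and Sdf2l1 were the others. Trib3 missed the test without any 1 library except ankle MSU 3, DRG PBS 3 or DRG MSU 1.

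Opposite responses, in which both tissues passed the test with opposite signs, were found in both directions. The level rose in the ankle and fell in the DRG for 587 genes (2.97%), and fell in the ankle and rose in the DRG for 252 (1.27%). The balance depends on the settings, with 377 and 359 genes under upper quartile factors, 253 and 314 with no count filter, and 4 and 21 against a 1.5-fold difference. The first count was 389 without DRG PBS library 1 and 374 without DRG MSU library 2, and the second was 166 without DRG MSU library 2 and 148 without DRG MSU library 3. Without DRG MSU library 1 they were 510 and 328. These genes were selected by the 2 tests, so the values that follow are a description.

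Among the genes that rose in the ankle and fell in the DRG, Ntng2, a netrin-like adhesion protein of axons, had 60.2, 85.6 and 79.0 CPM in ankles after MSU, against 15.2, 17.8 and 17.5 CPM in ankles after PBS. Its DRG values were 30.3, 22.6 and 18.9 CPM after MSU, against 48.8, 47.1 and 53.7 CPM after PBS. Itgb3, an integrin subunit of platelets and osteoclasts, had 117, 115 and 93.4 CPM in ankles after MSU, against 36.3, 76.5 and 39.5 CPM in ankles after PBS, where library 2 of the controls was high. Its DRG libraries held 9.61, 6.76 and 8.27 CPM after MSU, against 20.8, 20.4 and 26.5 CPM after PBS. Neither tissue's groups overlapped for either gene. Syn1, a synaptic vesicle protein, rose in the ankle (log2 fold change 1.23) at 5.14 CPM or less and fell in the DRG (log2 fold change -1.03). Elfn1, a synaptic adhesion protein, and Adamts8, a protease, had log2 differences of 2.69 and 3.10. Cdhr1, a cadherin known from photoreceptors, rose to 18.3, 18.7 and 19.4 CPM in ankles after MSU, against 1.26, 0.845 and 0.248 CPM in ankles after PBS, and fell in the DRG (log2 fold change -0.64).

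Among those that fell in the ankle and rose in the DRG, Vipr2, a receptor of vasoactive intestinal peptide, had 3.72, 2.10 and 2.02 CPM in ankles after MSU, against 17.2, 18.1 and 14.7 CPM in ankles after PBS. The DRG held 1.94, 3.96 and 3.94 CPM after MSU, against 0.743, 0.803 and 0.863 CPM after PBS. Il20rb, a receptor subunit of interleukin-20 cytokines in epithelium, had 31.4, 29.3 and 25.3 CPM in ankles after MSU, against 77.4, 99.7 and 89.8 CPM in ankles after PBS. DRG libraries had 2.51, 2.24 and 2.72 CPM after MSU, against 1.16, 0.703 and 0.531 CPM after PBS. The groups were apart in both tissues for both genes. Sytl1, Zfp185, C1qtnf9 and Gli2, the last a transcription factor of hedgehog signalling, had log2 differences of -3.53, -3.52, -3.88 and -3.03. Their DRG levels after MSU were at or under 10.3 CPM.

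**Figure D5:**
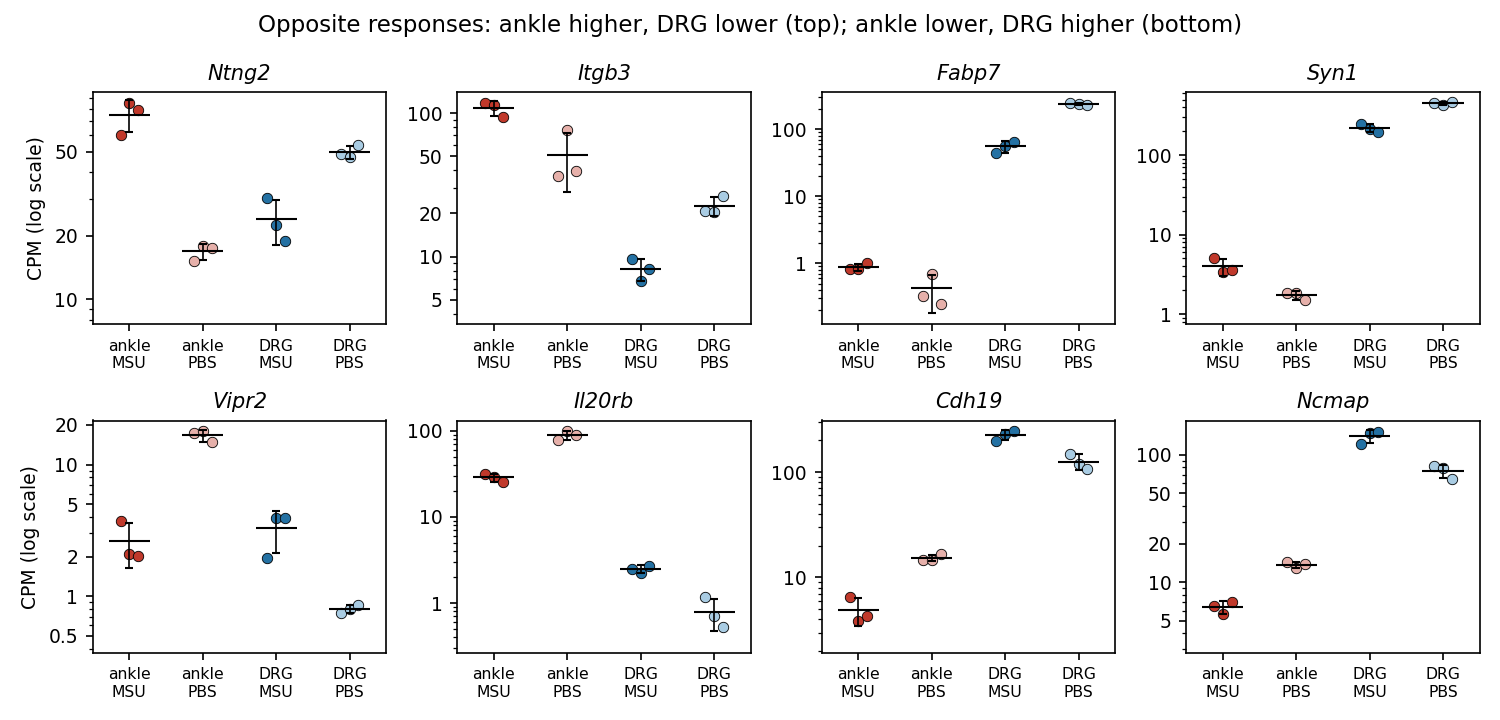
Level in each library (points, CPM on a log scale) of 8 genes with opposite responses, with the mean and SD of 3 libraries as a bar. The top row rose in ankles after MSU and fell in DRG after MSU relative to PBS, and the bottom row did the reverse. The MSU and PBS points do not overlap within a tissue in any of the 8 panels.

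Alike responses were defined by an interval, because a difference that misses the test does not show likeness. The 95% interval of the difference lay within 1.5-fold for 208 genes that rose in both tissues (1.05%) and 393 that fell in both (1.99%), while 635 and 747 genes that rose or fell in both had a difference that missed the test. The 208 became 125 without DRG PBS library 1, 124 without DRG PBS library 2, 111 without DRG MSU library 2, 105 without DRG MSU library 3 and 268 without DRG MSU library 1. Il17ra, the receptor of interleukin-17A, had 188, 212 and 205 CPM in ankles after MSU, against 56.4, 66.1 and 54.0 CPM in ankles after PBS. For the DRG the values were 24.2, 33.1 and 33.4 CPM after MSU, against 7.59, 8.39 and 9.83 CPM after PBS. It rose 3.42-fold in the ankle against 3.55-fold in the DRG without overlap, and the interval of the log2 difference was -0.45 to 0.35. Slc43a3, a purine nucleobase transporter, had 128, 121 and 125 CPM in ankles after MSU, against 43.5, 76.4 and 53.1 CPM in ankles after PBS, where PBS library 2 was the highest control. Its DRG libraries held 109, 121 and 120.2 CPM after MSU, against 54.9, 53.1 and 57.1 CPM after PBS. It rose 2.16-fold in the ankle against 2.12-fold in the DRG, with an interval of -0.44 to 0.49. Both met the bound in all 24 alternatives.

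Others met the bound in part of the alternatives. Tnfaip2, an NF-kB target of endothelium and myeloid cells, rose 4.26-fold in the ankle against 4.43-fold in the DRG and kept the bound in 19 of 24. Stk17b, a kinase of lymphocytes, kept it in 15 and Tgm2, transglutaminase 2, in 7. Among genes that fell in both, Dhcr7, the last enzyme of cholesterol synthesis, had 32.7, 40.7 and 30.4 CPM in ankles after MSU, against 62.6, 85.8 and 77.2 CPM in ankles after PBS. In the DRG it had 61.7, 56.8 and 62.3 CPM after MSU, against 113, 121 and 134 CPM after PBS. Its log2 fold change was -1.12 in the ankle against -1.02 in the DRG, and it kept the bound in 20 of 24 alternatives. Nfic, a transcription factor, kept it in 16, and Wasf1, which controls actin in neurons, in 11.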

How the data were processed

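Bulk messenger RNA was sequenced from ankle joint and DRG of C57BL/6 mice, with TRIzol extraction and a VAHTS Universal V6 kit for MGI, per the labels' protocols. The authors deposited a table of raw read counts per gene for each library, with 55359 genes. The submitters' processing notes name HISAT2, HTSeq 0.11.3, DESeq2 and the build mm39, while the strand setting of the counting is not given in the sources used here, so overlapping genes on opposite strands may share reads. Symbols from the GENCODE M21 annotation of build GRCm38 matched 52083 IDs.

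Counts of 12 libraries were filtered (filterByExpr, minimum count 10, minimum total 15) to 19773 genes, scaled by TMM and fitted in edgeR 4.0.16 (R 4.3.3) with robust quasi-likelihood, 1 mean per group and no covariate. The ankle response, the DRG response and their difference were contrasts of that fit, each adjusted over all tested genes by Benjamini-Hochberg, with a threshold of 0.05. Standard errors are the log2 value over the square root of F. Libraries held 11632950 to 38812815 counts, so 3 counts equal 0.0773 to 0.258 CPM, and low values carry counting error of that size. No 2 libraries of a group differed by less than sampling noise. The fit was tested on simulated counts in which 200 genes differed. It recovered 7.46% of differences of 1.5-fold, 38.8% of 2-fold and 75.8% of 4-fold, and 2 of 83 calls were false. The simulation changed only ankle after MSU and gave 83 calls, against 6175 in the data. With fewer calls the adjustment demands a smaller p, so these rates do not carry over to the 6175 calls. A missed test does not by itself show that a difference is absent. limma 3.58.1 and DESeq2 1.42.0 served as alternatives, beside other scalings, filters and left-out libraries.

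Genes were named by a rule: those with the largest differences, the strongest opposite and alike responses, up to 4 members of each of 37 gene lists with the smallest p, and a set of known mediators. Outside the rule, Osmr, Il18r1, Cebpb, Angpt2, Cdh5, Cldn5, Esm1, Egln3, Nt5e, Ptgs1, Timp2, Timp4, Ly6c2, Prph, Gal, Asic1, Calcb, Npas2, Sdf2l1 and Trib3 were named to complete short counts, after their values were seen. The values of 2 genes that the rule takes in are not reported here. The comparison, the lists and the rule were chosen with earlier results of these data known. Promoter windows from RefSeq (GRCm38.p6) matched 13737 of 19768 tested symbols. The 6 spinal cord libraries entered 1 alternative fit.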

Additional observations from a re-analysis of the deposited data

Results flagged for a closer look

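Every value here is a log2 difference in response, ankle minus DRG, or a count of genes, singled out because the difference between the tissues was itself tested and passed, or because the tissues moved in opposite directions. The test was passed by 6175 genes, 587 genes rose in the ankle and fell in the DRG, and 252 genes fell in the ankle and rose in the DRG (edgeR, adjusted p under 0.05).

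Among named genes that rose in the ankle and fell in the DRG, the difference was 5.03 for Cdhr1, 3.22 for Ntng2, 3.10 for Fabp7, 3.10 for Adamts8, 2.555 for Itgb3, 2.69 for Elfn1 and 2.26 for Syn1. Those of inflammatory and metabolic lists were 2.78 for Tnip1, 1.76 for Txnrd1, 1.61 for Epas1, 1.605 for Ackr1, 1.535 for Ptger4, 1.48 for Ntrk2, 1.38 for Gclm, 1.38 for Impdh1 and 1.09 for Hk1. The DRG groups of all these lay apart, and so did the ankle groups.

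Among named genes that fell in the ankle and rose in the DRG, the difference was -6.73 for Plin4, -4.69 for Vipr2, -3.875 for C1qtnf9, -3.53 for Sytl1, -3.52 for Zfp185, -3.175 for Il20rb, -3.04 for Krtdap and -3.03 for Gli2. Glial and other members were -2.45 for Cdh19, -2.03 for Sbsn, -2.01 for Ncmap, -1.70 for Pycard, -1.49 for Vim, -1.32 for Timp3, -1.04 for Cnp and -0.88 for Il11ra1. Pycard was the 1 gene of these 16 whose groups overlapped in the DRG. Npas2 (log2 difference 1.00) and Esm1 (-2.13) also moved in opposite directions, Npas2 up and Esm1 down in the ankle.

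The muscle transcripts of DRG MSU library 1 (18700 CPM summed, against 2288 and 2308 CPM in the other two) and the glucocorticoid-induced transcripts of ankle PBS library 2 (3826 CPM, against 1622 and 2159 CPM) stood apart within groups of 3, which are too small for an outlier test. Their part in the genes above was not tested beyond the fits without these libraries, which called 3025 and 3015 genes (higher and lower) without the first and 2988 and 2676 without the second.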

How the results depend on the processing

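No named gene whose difference was called changed sign under the alternatives run. Among the values of named genes under alternatives, 3445 kept their side of the threshold, 268 lost it and 27 gained it. In addition, 12 genes that were not called took the other sign somewhere, at a size of at most 0.256. RLE factors, TMM within each tissue, a mean count of at least 10, DESeq2, limma-voom and a variance per group kept every count over all genes within 1.5 times. List counts moved further: DESeq2 gave 6 neutrophil chemoattractants, 4 monocyte chemoattractants, 7 muscle genes and 5 lower monocyte and macrophage genes, against 3, 1, 14 and 2, and RLE factors gave 4 of the last. Upper quartile factors gave 377 genes for the opposite response with the ankle up and 359 with the ankle down. With no count filter these were 253 and 314, and the higher differences 1926. Fitting each tissue alone gave 340 genes alike upward, and all 18 libraries gave 649 alike downward. A test against a 1.5-fold difference left 980 higher and 1098 lower differences, 1634 and 1757 ankle calls, 478 and 98 DRG calls, and 4 and 21 opposite responses, and it gives no alike counts. An adjusted p under 0.01 left 2132 higher and 1557 lower differences, 1222 and 1700 DRG calls, 259 and 85 opposite responses and 103 and 227 alike responses, and a bound of 2-fold gave 432 and 713 alike genes. Beyond fewer calls at a stricter threshold, the causes were not tested.

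Leaving out 1 library at a time gave 2667 to 3202 higher and 2384 to 3015 lower differences, 374 to 600 and 148 to 328 opposite responses, and 105 to 268 and 274 to 384 alike responses, upward counts first. Ankle calls ranged over 3776 to 4358 up and 3733 to 4590 down, and DRG calls over 1526 to 2335 up and 1935 to 3047 down.

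The replicate numbers did not pair the libraries (correlations of deviations from -0.042 to 0.187 within the ankle and from -0.009 to 0.106 within the DRG). A replicate block within each tissue gave 2957 higher and 2640 lower differences, 5334 of the 6175 calls being kept, and the label number as a correlated block gave 3368 and 2935 at a correlation of 0.129. Depth limits genes near 3 counts, and with 3 libraries a group the median SE of the difference was 0.28.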

Other observations

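The 6 spinal cord libraries stand outside the comparison, and their values came from the fit of all 18 libraries. Csf3 averaged 51.6 ± 18.1 CPM after MSU and 0.0740 ± 0.128 CPM after PBS (SD, n = 3 each; 3 counts in all after PBS, edgeR adjusted p = 2.68e-07), and Cxcl1 46.9 ± 19.8 CPM after MSU and 0.0729 ± 0.0727 CPM after PBS (4 counts in all after PBS, edgeR adjusted p = 4.12e-06). Lcn2 rose by 4.84 on the log2 scale (edgeR adjusted p = 0.000135) and Saa3 by 7.74 (edgeR adjusted p = 0.000121). Sele averaged 13.7 ± 5.73 CPM after MSU and 0.154 ± 0.134 CPM after PBS (SD, n = 3 each; log2 fold change 6.31, edgeR adjusted p = 7.85e-07), and Selp averaged 26.3 ± 6.30 CPM after MSU and 0.123 ± 0.154 CPM after PBS (log2 fold change 7.88, edgeR adjusted p = 2.1e-07). Icam1 rose by 2.80 on the log2 scale (edgeR adjusted p = 2.06e-07) and Il1r1 by 1.70 (edgeR adjusted p = 1.94e-06). The glucocorticoid-induced genes Sgk1 and Fkbp5 rose by 2.53 and 2.46 on the log2 scale (edgeR adjusted p = 0.00153 and 0.00185). Hif1a, which rose in the ankle, averaged 90.2 ± 5.63 CPM after MSU and 94.0 ± 10.9 CPM after PBS (log2 fold change -0.06, edgeR adjusted p = 0.844). Calca, which also rose in the ankle, averaged 29.9 ± 7.64 CPM after MSU and 23.1 ± 2.90 CPM after PBS (log2 fold change 0.37, edgeR adjusted p = 0.588).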
